A study of Arabidopsis thaliana with 4 samples.

Results

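The 5 Arabidopsis thaliana genes described here regulate the time of flowering. GI, AGL24, AGL42, SNZ and SMZ were compared between wild-type and ago4-1 plants on Affymetrix ATH1 arrays. Their probe sets were chosen by symbol, as those paired with a single gene named GI, SNZ, SMZ, AGL24 or AGL42, with no filter on low signal. These are 5 of the 13350 genes that have a single-symbol probe set on the array, each with 1 probe set. Whole plants, 5 weeks old and grown in hydroponics with 16 h of light a day, gave 2 wild-type arrays (the La-er line, as the labels spell it) and 2 ago4-1 arrays. The ago4-1 plants carry a mutant allele of AGO4, the Argonaute that directs DNA methylation with small interfering RNAs, and no treatment is named for either genotype. Arrays of 1 genotype are biological replicates by their titles. How many plants made up a sample, and at what hour they were harvested, is not given in the sources used here.

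Flowering in Arabidopsis is set by day length, by age and by signals from inside the plant, and these inputs meet at the florigen gene FT in the leaf and at a group of MADS-box genes in the shoot tip. GI (GIGANTEA, AT1G22770) is a large protein whose transcript follows the circadian clock with a peak towards evening. Together with the light sensor FKF1 it removes the CDF repressors, so that CONSTANS can activate FT in long days. AGL24 (AT4G24540) and AGL42 (AT5G62165) encode MADS-box transcription factors that promote flowering at the shoot tip. AGL24 works with SOC1 to switch on LEAFY, whereas AGL42 is a close relative of SOC1 and is also known as FOREVER YOUNG FLOWER, for its ability to delay the ageing and shedding of floral organs. SNZ (SCHNARCHZAPFEN, AT2G39250) and SMZ (SCHLAFMUTZE, AT3G54990) encode AP2-type repressors of flowering whose transcripts are targets of the microRNA miR172. The members thus comprise 3 activators and 2 repressors, and they lie on 5 different chromosomes.

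Both MADS-box activators had higher signals in ago4-1, AGL42 by 2.02-fold and AGL24 by 1.4-fold, while the activator GI and the repressor SNZ had lower signals, by 1.6-fold and 1.76-fold. The signal of the repressor SMZ overlapped between the genotypes. With no low-signal filter, 0 of the 5 differences passed limma's moderated test at a Benjamini-Hochberg adjusted p under 0.05, a threshold that 0.615% of all 22746 probe sets passed (0.4% higher and 0.215% lower in ago4-1). Of the 5 genes, 4 had an unadjusted p under 0.05, against 15.7% of all probe sets. When probe sets in the lowest 30% by mean signal were left out, 4 of the 5 members were kept and 1, AGL42, passed, where 4.06% of 15922 probe sets did, 2.14% being higher in ago4-1 as AGL42 was. Differences are ago4-1 minus wild type on the log2(signal + 16) scale, and a fold is of signal + 16. Since the genes were chosen with earlier results of these data known, these shares are a description of the set and not evidence for it.

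**Figure D1:**
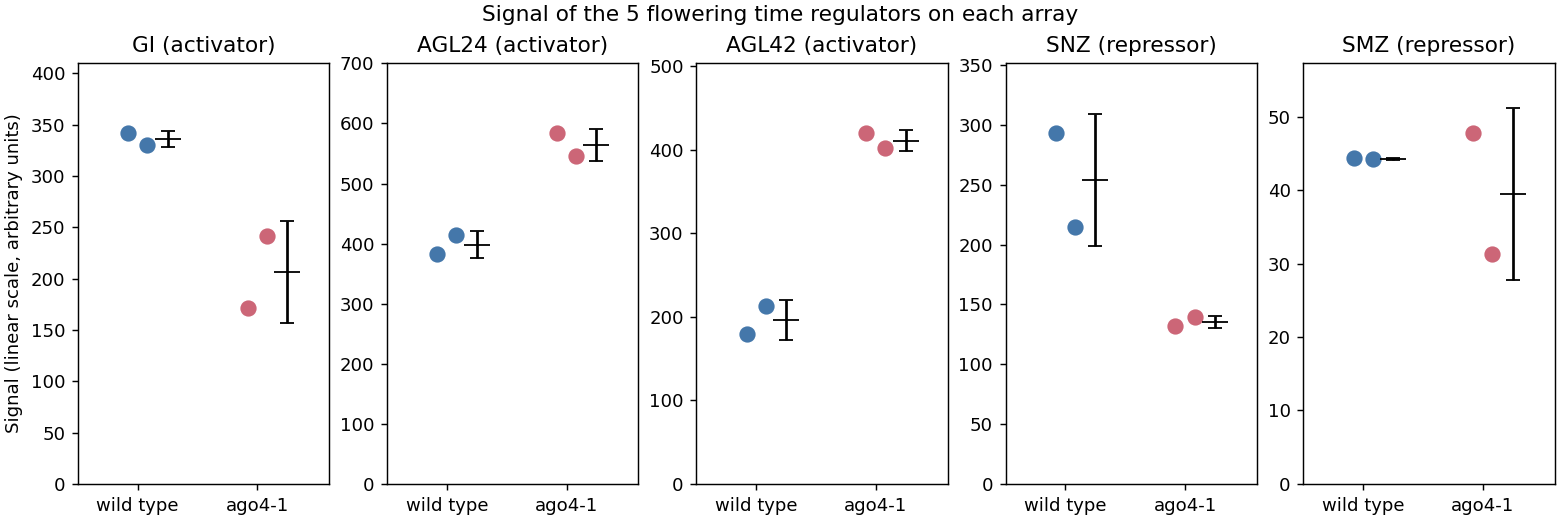
Signal (linear scale, arbitrary units) of each member on the 2 wild-type arrays (blue points) and the 2 ago4-1 arrays (red points), with the mean and SD of each genotype as black bars (n = 2 each); each panel has its own axis from 0. The genotypes separate for GI, AGL24, AGL42 and SNZ and overlap for SMZ.

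Of the 5 genes, AGL42 had the largest log2 difference between the genotypes. The wild-type arrays gave it signals of 179.2 and 213.1, and the ago4-1 arrays gave 419.7 and 402. Both ago4-1 arrays lay above both wild-type arrays, and arrays of one genotype lay close together, 0.23 apart on the log2 scale in wild type and 0.06 apart in ago4-1. The smallest of the 4 differences between an ago4-1 and a wild-type array was 0.87. The means were 196.2 ± 23.9 and 410.8 ± 12.5 (SD, n = 2 each), a log2 difference of 1.01 (SE 0.19, 95% interval 0.56 to 1.47). The limma adjusted p was 0.0879 with no filter and 0.0237 with the filter at the 30th percentile. Under that filter the adjusted p was 0.0751 without wild type replicate 1 and 0.0781 without ago4-1 replicate 1, and 0.00886 and 0.0388 without the other array of each genotype. A difference at least this large, in either direction, was found for 5.62% of all probe sets. AGL42 has 17 RefSeq transcripts, and which of them its single probe set measures was not examined.

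AGL24, the partner of SOC1, had its higher signals in ago4-1, as AGL42 did, with a smaller difference. Its signal was 382.4 and 414.3 in wild-type plants, against 583.7 and 545.9 in the mutant. The genotypes did not overlap, and the gap between replicates was 0.11 on the log2 scale in wild type and 0.09 in ago4-1, against at least 0.38 between genotypes. The log2 difference was 0.49 (SE 0.14, 95% interval 0.14 to 0.84), with a limma adjusted p of 0.192, or 0.143 with the filter. Differences of this size were common, at or beyond it in 26.7% of all probe sets.

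GI, the clock-controlled activator, had its higher signals in wild type. It was at 341.7 and 330.4 in wild-type plants, against 171.2 and 241.6 in the mutant. The wild-type arrays were nearly level, 0.05 apart on the log2 scale, whereas the ago4-1 arrays were 0.46 apart, slightly more than the smallest difference between the genotypes, 0.43. The means of 336 ± 8.05 and 206.4 ± 49.7 (SD, n = 2 each) gave a log2 difference of -0.68 (SE 0.22, 95% interval -1.23 to -0.14). The limma adjusted p was 0.23 with no filter and 0.12 with it. Of all probe sets, 15% had a difference at least this large in either direction. With the filter and without ago4-1 replicate 2, the array nearer to wild type, the difference was -0.91 and passed (adjusted p = 0.0438), and without ago4-1 replicate 1 it was -0.45 (adjusted p = 0.271).

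SNZ, a repressor of flowering, also had its higher signals in wild type. Its values were 293 and 214.9 in wild-type plants, against 131.9 and 139.2 in the mutant. Here the spread lay in wild type, whose arrays were 0.42 apart on the log2 scale, and the ago4-1 arrays were 0.07 apart. Both ago4-1 arrays were below both wild-type arrays by at least 0.57. The log2 difference was -0.82 (SE 0.25, 95% interval -1.42 to -0.21), with a limma adjusted p of 0.201, or 0.0854 with the filter. Of all probe sets, 9.81% had a difference at least this large in either direction. SNZ is on chromosome 2, as is AGO4, with 1298 protein-coding genes between them in the RefSeq annotation.

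SMZ, its relative, had a mean log2 value of 5.85 over the 4 arrays, just below the 5.91 that the filter at the 30th percentile required. The signal was 44.35 and 44.18 in wild-type plants, against 47.74 and 31.24 in the mutant, so one ago4-1 array was above wild type and the other below. The log2 difference was -0.14 with a 95% interval of -1.01 to 0.74 (limma adjusted p = 0.897). That interval includes the value of SNZ, -0.82, so these arrays do not show whether the pair of repressors differ in their response. The SD of the signal was 0.123 in wild type and 11.7 in ago4-1 (n = 2 each). The other AP2-type genes of the miR172 group on the list, 4 of 6, had no named probe set and are not analysed here.

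Repressors and activators did not divide by direction. Of the 3 activators, AGL24 and AGL42 were above 0 and GI below, and both repressors were below 0. For 4 of the 5 members the arrays of the genotypes did not overlap, 2 with ago4-1 above and 2 with ago4-1 below. Among all probe sets 47.1% showed no overlap, 21.7% with ago4-1 above and 25.4% with it below. An exact permutation test of 2 arrays against 2 cannot give a two-sided p below 0.333, so the tests here rest on the spread that limma shares across probe sets, and the number of arrays limits their precision.

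**Figure D2:**
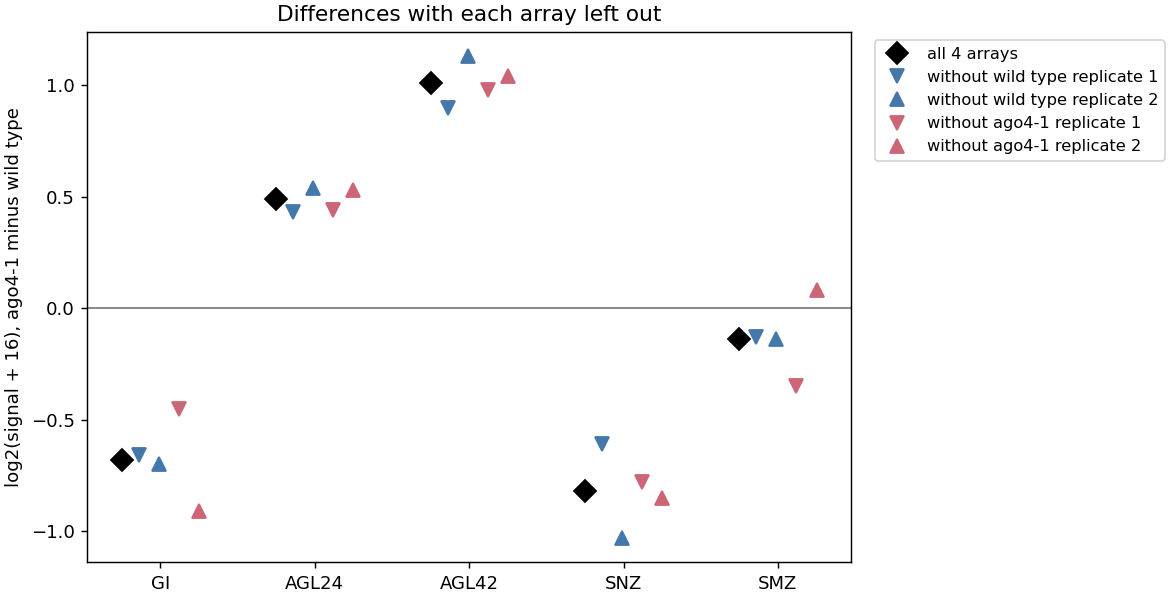
Difference in log2(signal + 16), ago4-1 minus wild type, of each member with all 4 arrays (black diamonds) and with each array left out (triangles, blue for a wild-type and red for an ago4-1 array). The difference of AGL42 stayed between 0.9 and 1.13 and that of AGL24 between 0.43 and 0.54, GI ranged from -0.91 to -0.45 and SNZ from -1.03 to -0.61, and SMZ changed sign, from -0.35 to 0.08.

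The members were also set beside the other genes known to promote or delay flowering. Of 87 genes on the flowering lists, 14 had a named probe set, the 5 members and 9 others. With no filter 0 of the 14 passed limma's test in either direction, beside 0.615% of all probe sets. An unadjusted p under 0.05 was found for 4, beside 15.7% of all probe sets. All 4 were members, which were chosen with earlier results of these data known. Of the 14, 4 were above 0 and 10 below, and the median log2 difference was -0.15, beside -0.03 over all probe sets. That median was 0.014 without ago4-1 replicate 1, -0.018 without ago4-1 replicate 2 and -0.239 without wild type replicate 2. Leaving out the 5 members, 2 of 9 were above 0 and the median was -0.16. No unadjusted p among these 9 was under 0.05, a threshold that 15.7% of all probe sets passed.

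CDF5, a DOF-type repressor of CONSTANS and one of the CDF repressors, had the highest difference of the 9. Its signal was 117.6 and 131.8 in wild-type plants, against 211.4 and 165.4 in the mutant, so the genotypes did not overlap. The log2 difference was 0.53 (95% interval -0.1 to 1.16, limma adjusted p = 0.394). LD, a homeodomain protein of the autonomous pathway that promotes flowering, had the lowest. It was at 215.1 and 228 in wild-type plants, against 117.3 and 178.4 in the mutant, a log2 difference of -0.56 (adjusted p = 0.388). As with GI, ago4-1 replicate 1 was the lowest array for LD, and the wild-type arrays lay close together. FD, the bZIP partner of FT, stood at 0.23 and FY, an RNA 3' end processing factor of the autonomous pathway, at -0.16, and both overlapped between the genotypes.

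AGL71 and AGL72, the nearest relatives of AGL42 in the SOC1 clade and direct neighbours on chromosome 5, did not follow the genotype. AGL71 was at 43.22 and 39.13 in wild-type plants, against 8.508 and 50.22 in the mutant. AGL72 was at 47.06 and 4.862 in wild-type plants, against 3.632 and 28.74 in the mutant. The genotypes overlapped for both, the wild-type arrays of AGL71 lying close together and its ago4-1 arrays far apart, and neither gene passed the filter. The MADS-box activator AGL19 overlapped too (log2 difference -0.01), as did the repressors AGL18 (-0.37) and ATC (-0.08), of which ATC was between 2.637 and 5.483 on all 4 arrays.

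**Figure D3:**
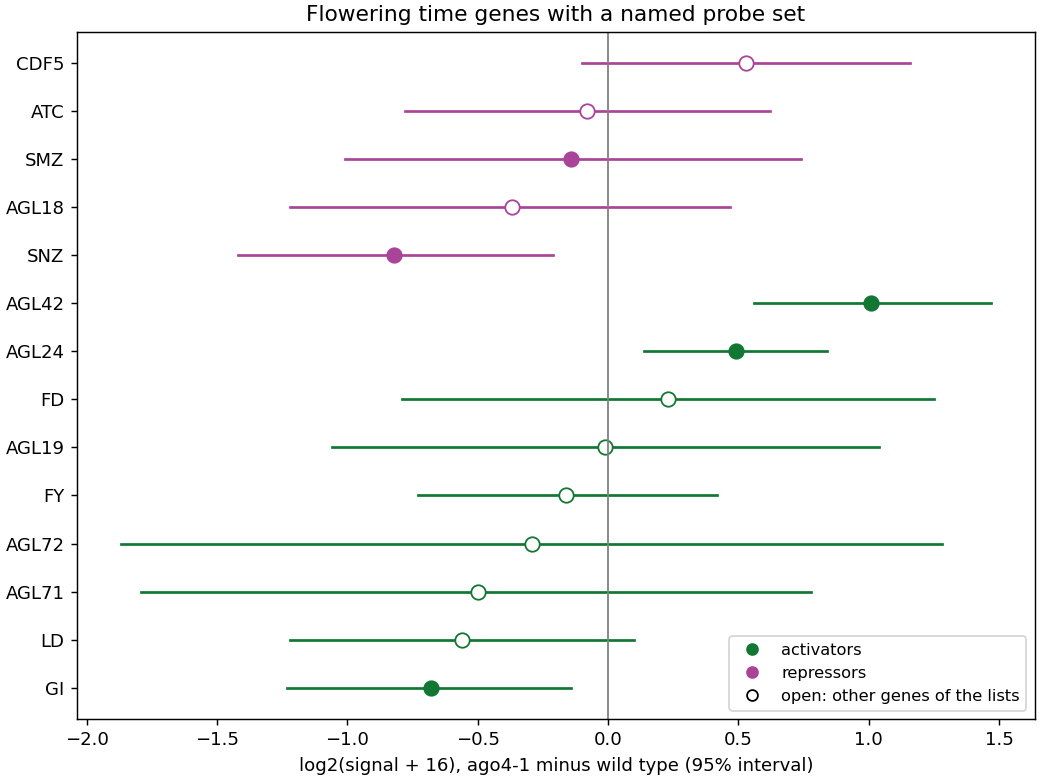
Difference in log2(signal + 16), ago4-1 minus wild type, with its 95% interval from limma, for the 14 flowering genes with a named probe set; activators are green, repressors purple, members filled and the other list genes open. The intervals of GI, AGL24, AGL42 and SNZ lie to one side of 0, and those of the other 10 genes include it.

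GI is the one member that belongs to the circadian clock, and 3 of the 27 clock genes on the list had a named probe set. These were GI at -0.68, CDF5 at 0.53 and FIO1, an RNA methyltransferase that affects the length of the clock's period, at -0.15. FIO1 was at 118.5 and 106.1 in wild-type plants, against 103.1 and 96.56 in the mutant. The genotypes did not overlap for these 3 genes, 1 with ago4-1 above, as for 47.1% of all probe sets. With no filter 0 of the 3 passed the test, beside 0.615% of all probe sets. An unadjusted p under 0.05 was found for 1, GI, beside 15.7% of all probe sets. The central oscillator genes of the list had no named probe set and are not analysed here.

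**Figure D4:**
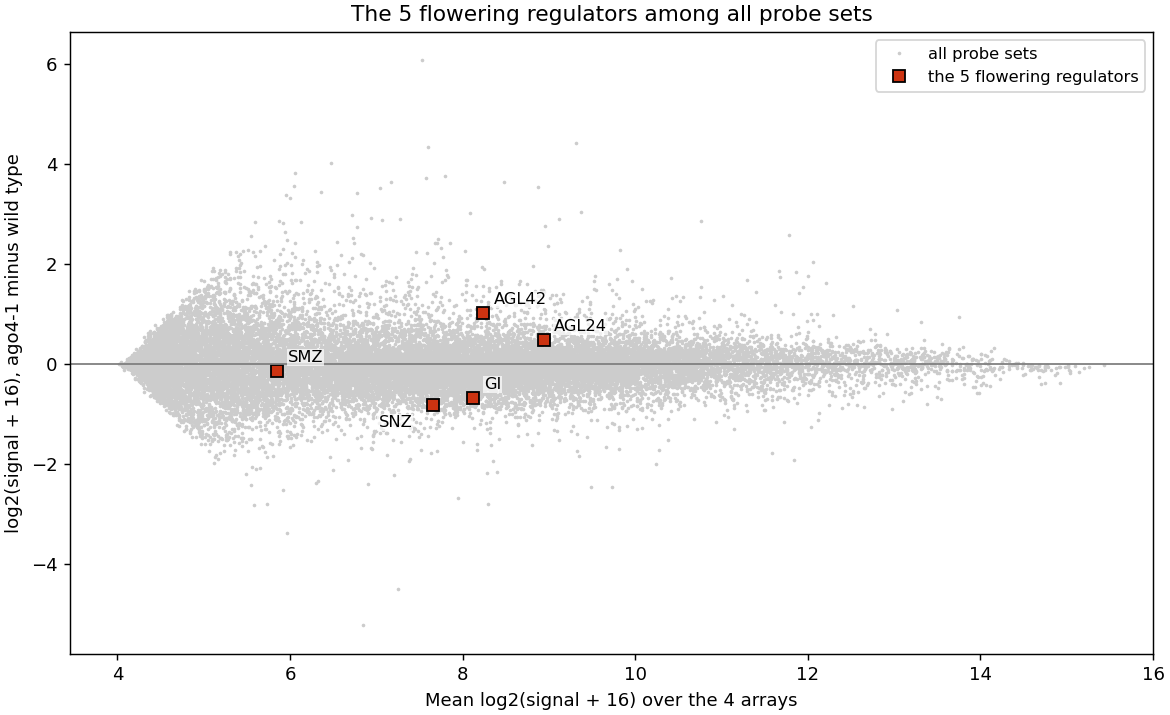
Difference in log2(signal + 16), ago4-1 minus wild type, against the mean log2(signal + 16) over the 4 arrays, for all 22746 probe sets (grey) and the 5 flowering regulators (red squares). AGL42 and AGL24 lie above 0, GI and SNZ lie below 0, and SMZ lies near 0.

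In whole plants, fewer cells of a type and less RNA per cell cannot be told apart, so markers of organs were read on the same arrays. Of 17 anther, tapetum and pollen genes 3 had a named probe set. Their summed signal was 1123 and 1323 in wild-type plants, against 2352 and 1774 in the mutant, higher in ago4-1 as were AGL42 and AGL24, while the median log2 difference of the 3 genes was 0.11. The sum is carried by the tapetum gene A9 (AT5G07230), at 1044 and 1196 in wild-type plants, against 2250 and 1690 in the mutant (log2 difference 0.79, limma adjusted p = 0.108, or 0.0402 with the filter). AMS and NZZ, regulators of anther development, stood at -0.36 and 0.11 and overlapped between the genotypes. The part of flower content in the differences of AGL42 and AGL24 was not tested.

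The floral organ and meristem genes UFO and CLV3, 2 of 22 on their list, were at most 47.41 on any array, and they went opposite ways. UFO was at 16.01 and 12.37 in wild-type plants, against 47.41 and 19.29 in the mutant (log2 difference 0.65, limma adjusted p = 0.508), and CLV3 at 2.979 and 13.84 against 5.335 and 3.176 (-0.23, adjusted p = 0.794). The leaf markers RCA and LHCB4.1, 2 of 12 on their list, stood at -0.08 and -0.05 between the genotypes. Both were between 28690 and 31770 on every array, where the highest signal of an array was 42660 to 45189. RCA did not overlap, with ago4-1 below, as for 25.4% of all probe sets, and LHCB4.1 overlapped. Whether signals this high still follow a change in RNA was not tested. Of the abscission and senescence genes, EIN3 stood at -0.03 and WRKY53 at 0.42, and both overlapped. The 3 of 13 root markers with a named probe set summed to 395.5 and 219.1 in wild-type plants, against 409.7 and 180.8 in the mutant, and they did not move together. PYK10 was higher in replicate 1 of both genotypes and EXPA7 in replicate 2, and both overlapped. EXPA18, an expansin of root hairs, was at 98.12 and 76.9 in wild-type plants, against 49.51 and 6.131 in the mutant (log2 difference -1.44, 95% interval -2.81 to -0.06, limma adjusted p = 0.299). AGL42 is also known from the root tip, and the part of root content in its difference was not tested. Of the 13 seed markers 0 had a named probe set. For the GAPDH control, 3' signal divided by 5' signal, a sign of RNA integrity, gave 1.56 and 2.05 in wild-type plants, against 1.41 and 1.74 in the mutant. The actin control gave higher ratios, 8.25 and 11.3 against 8.78 and 7.99, so signal near the 5' end was weaker on every array. Both ratios overlapped between the genotypes.

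The genes that lie beside each member on its chromosome were read as well. Among the 10 protein-coding genes on either side, 14 had a named probe set for GI, 10 for AGL24, 12 for AGL42, 12 for SNZ and 10 for SMZ, and 0 passed the test with no filter. An unadjusted p under 0.05 was found for 4 neighbours of AGL42, 2 of SMZ, 1 of AGL24, 1 of SNZ and 0 of GI, in all 8 of 58, beside 15.7% of all probe sets. The median log2 difference of these neighbours was 0.12 around GI, -0.16 around AGL24, 0.07 around AGL42, -0.09 around SNZ and -0.08 around SMZ. The neighbours with the same sign as the member were 6 of 14 for GI, 4 of 10 for AGL24, 9 of 12 for AGL42, 7 of 12 for SNZ and 5 of 10 for SMZ.

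The probe sets most like each member over the 4 arrays were found by the Euclidean distance between log2 values centred on their mean, among 8726 named candidates (8727 for SMZ) above the 30th percentile. For AGL42 they were AT1G03820 (distance 0.0749) and AT3G12710 (0.0896). AT1G03820 was at 448.5 and 531.6 in wild-type plants, against 1072 and 955.9 in the mutant, a log2 difference of 1.03. For GI they were AT5G18590 (0.0216) and AT1G22570 (0.0459), for AGL24 AT3G18280 (0.0225) and AT2G28360 (0.0366), and for SNZ AT5G41900 (0.0281) and AT3G26800 (0.0658). For SMZ, whose differences were small, they were AT2G17350 (0.0226) and AT2G45700 (0.0297). No other gene of the flowering lists was among these 10. Only 5 of the 9 others passed the filter and could have been, so their absence says little. A likeness over 4 arrays is a description only.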

How the data were processed

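Per the labels' protocols, biotin-labelled RNA of 4 whole-plant samples was put on ATH1 arrays. The authors deposited linear intensity values, 1 for each probe set on each array. The submitters' processing notes name GCOS; settings and genome build: not given in the sources used here. The trimmed mean was 500.1 on all 4 arrays, so the intensities were not normalized again. The median was 151 on ago4-1 replicate 1, the lowest array for GI and LD, and 162.1 to 165.1 on the others. With arrays centred on their medians the log2 difference of GI was -0.63, against -0.68 without.

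After 64 control probe sets were left out, log2(signal + 16) of 22746 probe sets was compared with limma 3.58.1 in R 4.3.3 (variance trend, two-sided, Benjamini-Hochberg over all probe sets, threshold 0.05, residual degrees of freedom 2, prior 4.204), after a test on simulated data. No low-signal filter was used, as in the rule for the members, and filters at the 30th and 50th percentile were alternatives. The others were quantile normalization, median centring, pseudocounts of 1 and 64, no variance trend, robust moderation, a block for the replicate number, each array left out, and, added after the data were seen, the 30th percentile filter with each array left out. A lone array in a genotype is assumed to vary like the other genotype's.

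The members and gene lists were chosen with earlier results of these data known. Genes were named where the platform's annotation gave 1 symbol (13513 probe sets, 13436 matched by gene ID to RefSeq's table of TAIR10.1, used for names, transcripts and neighbours), with 503 probe sets of several symbols and 8730 not listed left unnamed. 12 list symbols were assigned to their locus by hand, among them CCR2, which the annotation gives to another gene. The probe set with the highest mean stood for a gene. Named were the members, all listed flowering and clock genes, up to 4 genes of smallest p in the organ lists, and the 2 most alike probe sets per member; the values of AT1G03820 were picked after values were seen. Levels were not compared between probe sets, except that signals were summed within organ lists, where the probe set of highest signal weighs most. 1 planned gene family is not reported here.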

Additional observations from a re-analysis of the deposited data

How the results depend on the processing

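The direction of GI, SNZ, AGL24 and AGL42 was the same under every alternative run, and that of SMZ turned to 0.08 without ago4-1 replicate 2. AGL42 passed at a log2 difference of 1.01 with the filter at the 30th percentile (limma adjusted p = 0.0237), the filter at the 50th (0.027) and the replicate number as a block (0.0278), and also with the 30th percentile filter without wild type replicate 2 (difference 1.13, 0.00886) or ago4-1 replicate 2 (1.04, 0.0388). GI passed with that filter without ago4-1 replicate 2 (-0.91, 0.0438). For AGL42 the highest adjusted p over its other settings was 0.195 with all 4 arrays (no variance trend) and 0.427 with an array left out. With arrays left out the differences ran from 0.9 to 1.13 for AGL42, from 0.43 to 0.54 for AGL24, from -0.91 to -0.45 for GI, from -1.03 to -0.61 for SNZ and from -0.35 to 0.08 for SMZ. The 140 calls over all probe sets became 647 and 501 with the filters at the 30th and 50th percentile, 310 and 85 with pseudocounts of 1 and 64, 228 with robust moderation, 0 with no variance trend (2993 at an unadjusted p under 0.05), 947 with the replicate block, 4 without wild type replicate 2, 0 without any other single array (2148 to 4106 unadjusted), and, under the 30th percentile filter, 556 and 898 without wild type replicate 1 and 2 and 280 and 1046 without ago4-1 replicate 1 and 2. The share of calls that were higher in ago4-1 was 65% with no filter, 70.1% with centred arrays, 52.7% and 49.7% with the filters at the 30th and 50th percentile, 52% with the block, and 35.4% (370 of 1046) with the 30th percentile filter and without ago4-1 replicate 2. By their titles same-numbered arrays share a replicate number, and whether they also share a batch was not tested. Their deviations correlated at 0.069 over all probe sets and 0.166 above the 30th percentile. The replicate block gave 947 calls against 140 without it, and among the members it changed the call of AGL42 only. The median of the flowering list (-0.146) moved to -0.358 with the filter at the 50th percentile and -0.269 with a pseudocount of 1, and ran from -0.239 to 0.014 with an array left out. The clock median (-0.147) moved to -0.681 with the filter at the 50th percentile, which leaves 1 gene, GI. The causes of these shifts were not tested.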
